A study of Homo sapiens with 6 samples.

Results

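The MYC, MAX and MXD network was read in 143B osteosarcoma cells as 10 genes, MYC, MYCN, MYCL, MAX, MXD1, MXD3, MXD4, MXI1, MNT and MGA. They were taken by symbol from a deposited table of 58825 genes, and all 10 were among the 18910 genes with enough counts to be tested. 143B is a human osteosarcoma line. The study transfected it with 80 nmol/L of a negative control siRNA (3 libraries) or of a siRNA against SIGLEC15, a sialic acid-binding receptor (3 libraries), and took RNA after 36 h. Both groups received the transfection reagent and serum. Separate cultures behind the replicates are not stated, so the p-values reflect only how these 6 libraries vary, and that variation may be technical. The question asked here was how the network stood in these cells and whether its levels differed between the 2 siRNA groups.

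MYC, MYCN and MYCL are transcription factors of growth and proliferation that bind DNA only as pairs with MAX. The MXD proteins (MXD1, MXD3, MXD4 and MXI1, also called MXD2) and MNT pair with MAX as well, bind the same E-box sequence and bring in the SIN3 corepressor with its histone deacetylases. MGA is a very large protein that pairs with MAX inside a Polycomb complex. MAX, which can also pair with itself, is thus the shared partner for which activators and repressors compete, and MYC is a frequently amplified oncogene in osteosarcoma.

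Libraries held between 57966691 and 67655254 counts. SIGLEC15 itself lay near the detection limit at 6 to 22 counts in every library, and its difference did not pass (edgeR adjusted p = 0.529), so the groups are called by their siRNA. On the second principal component of log2 CPM, control replicate 3 (56.32) and SIGLEC15 siRNA replicate 1 (35.31) stood apart from the other 4 libraries (-27.15 to -20.36), and values without this pair are given where they bear on a result. The mesenchymal markers VIM, CD44 and SPARC were well expressed, with mean control levels of 482, 15.3 and 62.6 FPKM (fragments scaled to gene length and library size). RUNX2 (0.327 FPKM) and COL1A1 (1.10 FPKM) were weak, THY1 had no counts, and COL1A2 was near 0 at a mean of 0.0451 CPM (counts scaled to library size) in the control group. These markers differed between the groups: of 8 tested 4 rose and 0 fell, with a median log2 fold change of 0.519, namely SPARC (0.80), COL1A1 (0.69), COL6A1 (0.63) and ENG (0.40), where 4.65% of all genes were called. Among markers of other cells, PTPRC, CD3E, LYZ, CDH1, KRT5, CDH5 and EMCN had no counts in any library. The epithelial markers KRT18, KRT8 and EPCAM and the lysosomal gene CD68 were expressed, at mean control levels of 197, 26.9, 4.1 and 19.5 FPKM. The summed level of the tested epithelial markers was 890.2 to 1067 CPM in the control and 927 to 1022 CPM in the SIGLEC15 siRNA libraries, and that of the endothelial markers at most 1.24 CPM in any library.

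None of the 10 members passed the edgeR test between the groups at an adjusted p under 0.05, where 4.65% of all 18910 genes did (879 genes, 2.43% of all genes as lower and 2.22% as higher). MYC, its partner MAX and the repressor MXD1 were the members with the smallest p: all 3 SIGLEC15 siRNA libraries lay below all 3 control libraries for each of them, with fitted levels 1.51-fold, 1.21-fold and 1.47-fold lower. These 3 had an unadjusted p under 0.05, as did 19.1% of all genes (9.74% toward lower levels), and the DESeq2 Wald test called these same 3 as lower, where it called 17.1% of the 17043 genes it gave an adjusted p (8.49% as lower). MYCN, near the detection limit, lay higher in all 3 SIGLEC15 siRNA libraries, and the groups overlapped for the other 6 members. Groups that did not overlap were found for 26.6% of all genes, against 4 of the 10 members. In bulk RNA, a lower level in every cell and fewer cells with the transcript cannot be told apart. The median log2 fold change of the members was -0.134, beside -0.006 over all genes tested, and 8 of 10 were below 0, beside 50.9% of all genes.

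**Figure D1:**
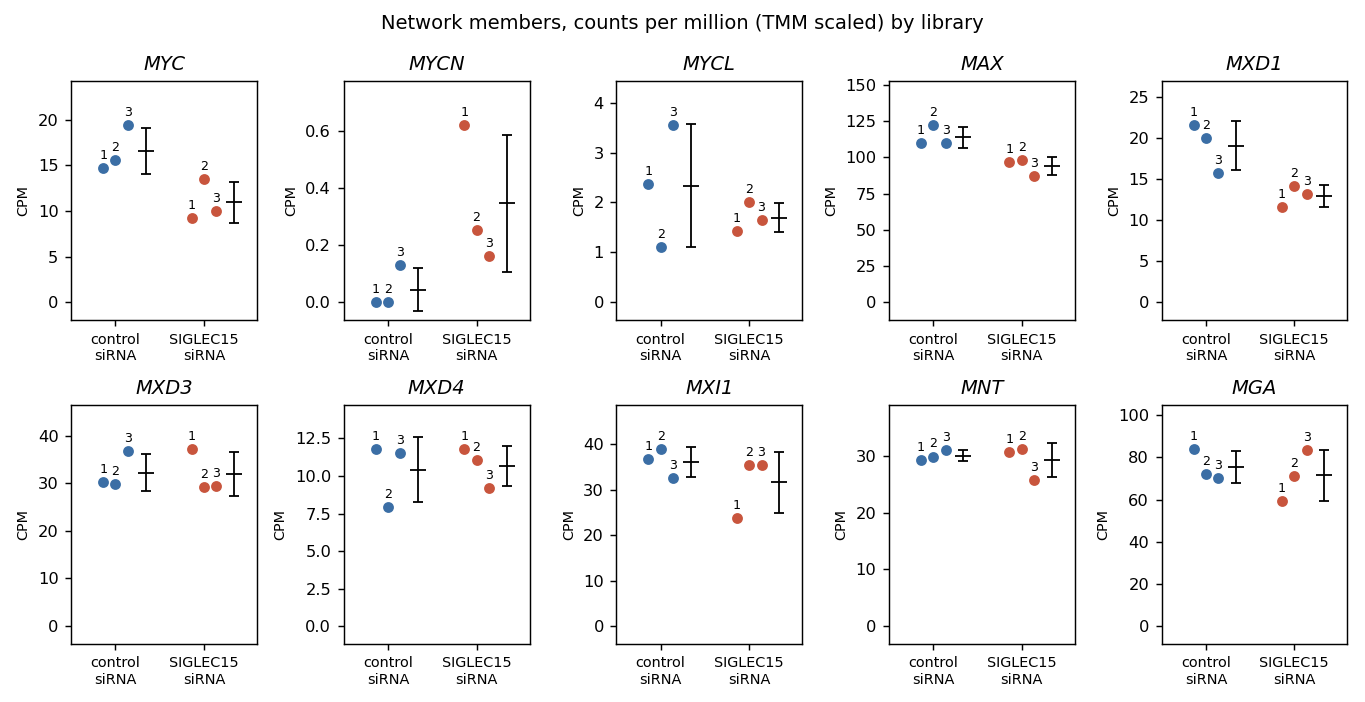
Level of each member in each library, in TMM-scaled CPM (vertical axis, a separate linear scale per gene). Points are libraries numbered by replicate, and bars to their right give the mean and SD of 3 libraries. For MYC, MAX and MXD1 every SIGLEC15 siRNA library lies under every control library, MYCN shows the opposite order at under 1 CPM, and the other 6 genes overlap.

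Levels were compared between genes only as FPKM, which divides by gene length. MAX was the most abundant member, with a mean of 15.3 FPKM ± 1.01 in the control group and 12.6 FPKM ± 0.931 after SIGLEC15 siRNA (SD, n = 3 each), at the 85.3rd percentile of all genes tested over the 6 libraries. Its range did not touch that of any other member. MXD3 and MXI1 followed at mean control levels of 5.24 and 5.13 FPKM, with overlapping ranges. MGA (3.58 FPKM) lay above MNT (2.90 FPKM), and MNT, MYC (3.02 FPKM) and MXD1 (2.52 FPKM) could not be put in order, since the range of each in the control libraries overlapped the next one's by mean level. MXD4 (1.27 FPKM) lay below them, and MYCL (0.385 FPKM) below it without overlap. MYC was thus a gene of middling level in these cells, at the 52.1st percentile of the genes tested.

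**Figure D2:**
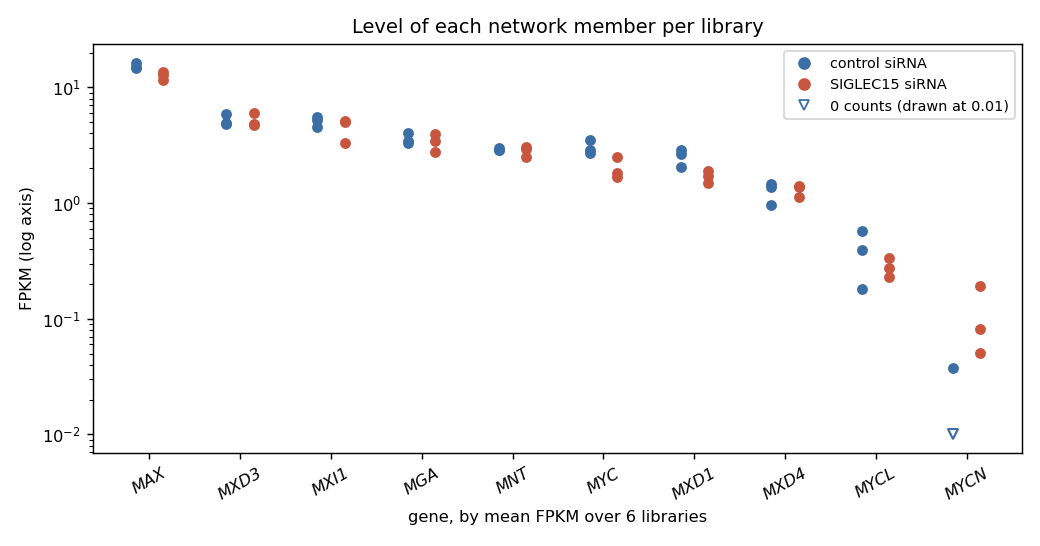
Level of each member in each library in FPKM (vertical log axis), ordered by the mean over 6 libraries. Points are libraries, and a hollow triangle drawn at 0.01 stands for libraries with no counts. MAX stands alone at the top, the genes from MXD3 to MXD1 form a run of overlapping levels, and MYCL and MYCN lie at the bottom.

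MYC carried most of the MYC family signal. MYC was at 14.69, 15.57 and 19.40 CPM in control replicates 1, 2 and 3 and at 9.276, 13.53 and 10.03 CPM in SIGLEC15 siRNA replicates 1, 2 and 3. The highest SIGLEC15 siRNA library thus lay just under the lowest control library. The means were 16.55 CPM ± 2.5 and 10.95 CPM ± 2.27 (SD, n = 3 each), with a log2 fold change of -0.60 (SE 0.184, 95% interval -1.04 to -0.16, edgeR adjusted p = 0.139). The highest and the lowest of the 6 values came from the pair of libraries that stood apart, and without both the log2 fold change was -0.36 (edgeR adjusted p = 0.452). Whether their position on the second component plays a part in the MYC values was not tested. By DESeq2 the adjusted p of MYC was 0.00944.

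MYCL, the family member first found in lung cancer, was weakly expressed, with 147, 65 and 217 counts in control replicates 1 to 3 and 94, 118 and 111 counts in the SIGLEC15 siRNA replicates. The control libraries spanned the whole range of the SIGLEC15 siRNA libraries. Its log2 fold change was -0.47 (SE 0.412, 95% interval -1.45 to 0.51, edgeR adjusted p = 0.612), and it turned to 0.07 without the pair of libraries that stood apart.

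MYCN (ENSG00000134323, chromosome 2, 15940550 to 15947007, plus strand, in the table's coordinates), the family member amplified in neuroblastoma, was at 0, 0 and 8 counts in control replicates 1, 2 and 3, against 41, 15 and 11 counts for the SIGLEC15 siRNA. All 3 SIGLEC15 siRNA libraries were higher, and replicate 1 alone held most of the counts. A count of 0 allows up to 3 counts, which is 0.0484 and 0.0508 CPM in those 2 control libraries, and the SIGLEC15 siRNA libraries were at 0.620, 0.255 and 0.164 CPM. The summed counts, 67 against 8, gave a ratio per total count of 7.94, and its exact Poisson bounds at 95%, for counting error alone, were 3.81 and 19.1. Between libraries the spread was wider: the log2 fold change was 2.93 (SE 1.30, 95% interval -0.16 to 6.02, edgeR adjusted p = 0.289). At its highest, in SIGLEC15 siRNA replicate 1, MYCN reached 0.192 FPKM, beside 1.67 FPKM of MYC in the same library. The antisense gene MYCNOS, which shares 98 exon bases with MYCN in GENCODE 29, had no counts.

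MAX (ENSG00000125952, chromosome 14, 65006174 to 65102695, minus strand) was at 109.7, 122.2 and 109.9 CPM in the control replicates and at 96.85, 98.37 and 87.26 CPM in the SIGLEC15 siRNA replicates. All SIGLEC15 siRNA libraries were lower. The log2 fold change was -0.28 (SE 0.0784, 95% interval -0.46 to -0.09, edgeR adjusted p = 0.113; DESeq2 adjusted p = 0.00749). Without the pair of libraries that stood apart it was -0.32. FNTB, the farnesyltransferase beta subunit gene on the opposite strand within the MAX locus, fell from 44.2, 45.7 and 39.4 CPM to 19.2, 22.7 and 21.3 CPM (log2 fold change -1.03, SE 0.104, edgeR adjusted p = 0.00536, and 0.053 without the pair of libraries that stood apart). In GENCODE 29 the exons of FNTB and MAX share 0 bases, though strand use in the counting is not stated, so reads outside annotated exons could have been assigned to either gene. The part of FNTB in the MAX difference was not tested.

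MXD1 (ENSG00000059728, chromosome 2, 69897688 to 69942942, plus strand), first described as a gene that rises when myeloid cells stop dividing and differentiate, was at 21.52, 19.94 and 15.72 CPM in the control replicates and at 11.55, 14.11 and 13.17 CPM in the SIGLEC15 siRNA replicates. The groups did not overlap, and control replicate 3 came closest to the SIGLEC15 siRNA libraries. The log2 fold change was -0.56 (SE 0.15, 95% interval -0.92 to -0.20, edgeR adjusted p = 0.0961), the smallest p of the 10 members. It was -0.60 without the pair of libraries that stood apart, and the DESeq2 adjusted p was 0.00328. MXD1 and MYC, a repressor and an activator that compete for MAX, thus both had lower values in the SIGLEC15 siRNA libraries, though neither passed edgeR. Within the control replicates the 2 genes ran in opposite order. Upstream, MXD1 shares 237 exon bases on the same strand with the splicing factor gene SNRNP27 in GENCODE 29, which is 3.73% of the MXD1 exons. SNRNP27 did not pass (log2 fold change 0.19, SE 0.303, edgeR adjusted p = 0.805).

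The other MXD family members and MNT showed no difference beyond their spread. MXI1 was at 36.73, 38.97 and 32.62 CPM in the control replicates and at 23.88, 35.44 and 35.52 CPM in the SIGLEC15 siRNA replicates. Only SIGLEC15 siRNA replicate 1, one of the libraries that stood apart, was low. The log2 fold change of MXI1 was -0.19 (SE 0.17, 95% interval -0.60 to 0.21), and it shrank to -0.03 without that replicate. MXD3, which is expressed in dividing cells, had means of 32.23 CPM ± 3.91 and 31.94 CPM ± 4.57 (SD, n = 3 each), and here control replicate 3 (36.74 CPM) and SIGLEC15 siRNA replicate 1 (37.21 CPM) were the high values of their groups. The 95% interval of its log2 fold change, -0.34 to 0.32, covers changes of a size like that of MAX in either direction. In GENCODE 29 MXD3 shares 22.5% of its exon bases with PRELID1 on the opposite strand and 18% with RAB24 on the same strand, and PRELID1 held 73971 counts over the 6 libraries, so the level of MXD3 is uncertain. MXD4 had 11.80, 7.905 and 11.54 CPM in the control replicates and 11.77, 11.04 and 9.215 CPM in the SIGLEC15 siRNA replicates, with overlapping groups and a 95% interval of -0.41 to 0.48. MNT, the MAX partner that is present in both resting and dividing cells, was the steadiest member, between 25.83 and 31.31 CPM in all 6 libraries, with a 95% interval of -0.28 to 0.20.

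MGA, whose product also carries a T-box DNA-binding domain, was at 83.98, 71.96 and 70.02 CPM in the control replicates and at 59.39, 71.18 and 83.65 CPM in the SIGLEC15 siRNA replicates. The highest control value and the highest SIGLEC15 siRNA value were nearly equal, and SIGLEC15 siRNA replicate 1 was again the lowest. The log2 fold change was -0.08 (SE 0.138, 95% interval -0.41 to 0.25, edgeR adjusted p = 0.829).

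**Figure D3:**
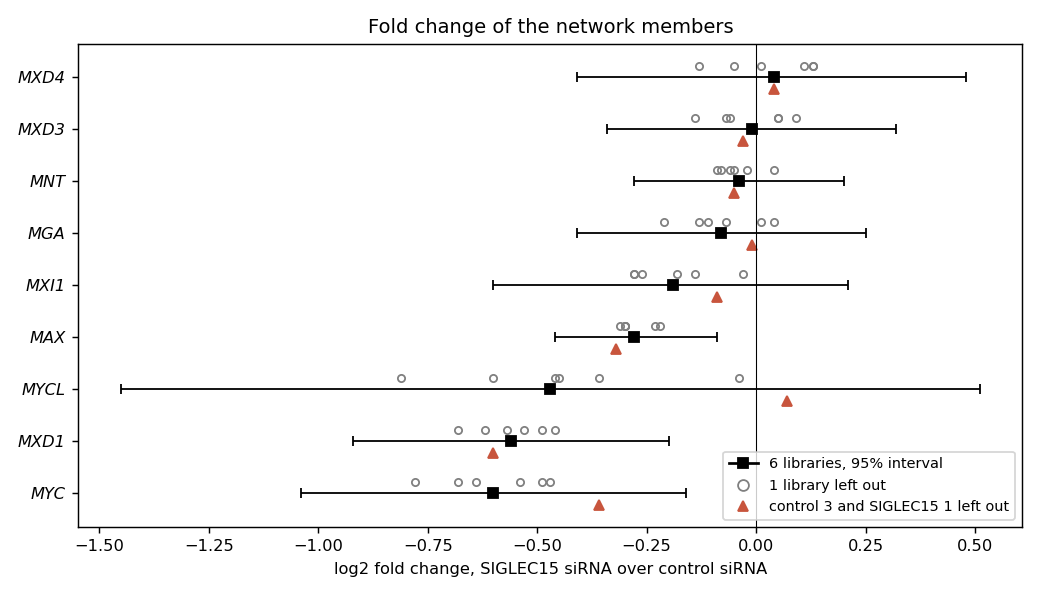
Fold change of 9 members between the groups (horizontal axis, log2, SIGLEC15 siRNA over control siRNA; MYCN at 2.93 is left out because 2 of its control libraries had no counts). Squares and lines give the fit of 6 libraries with its 95% interval, circles the fits with 1 library left out, and triangles the fit without control replicate 3 and SIGLEC15 siRNA replicate 1. MYC, MXD1 and MAX stay below 0 in every fit shown, while MXD3, MXD4, MNT and MGA fall on both sides.

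Set side by side as FPKM, the repressor side outweighed MYC in every library. The summed FPKM of the 4 MXD genes, MNT and MGA was 21.4, 20.3 and 20.2 in the control replicates and 18, 19.8 and 19 in the SIGLEC15 siRNA replicates. The summed FPKM of MYC, MYCN and MYCL was 3.10, 3.03 and 4.12 in the control replicates and 2.09, 2.94 and 2.14 in the SIGLEC15 siRNA replicates. The ratio of the first sum to the second was 6.91, 6.71 and 4.90 in the control replicates and 8.58, 6.73 and 8.90 in the SIGLEC15 siRNA replicates, so the groups overlapped for the ratio. MAX amounted to between 0.549 and 0.704 of the summed FPKM of the other 9 members in the 6 libraries. These are mRNA levels, and the protein pairs were not measured.

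The genes whose log2 CPM over the 6 libraries ran most like that of MYC were the long non-coding RNAs LINC01138 (Pearson r = 0.993) and CCND2-AS1 (r = 0.992) and the sphingomyelinase gene SMPD3 (r = 0.989). These r values describe 6 points that share libraries and depth, and with so few points 58 of the 18910 genes had an r over 0.95. LINC01138 was at 13.9, 15 and 18.2 CPM in the control replicates and at 9.67, 12.9 and 9.51 CPM in the SIGLEC15 siRNA replicates, the same order of high and low libraries as MYC apart from SIGLEC15 siRNA replicates 1 and 3, and it did not pass (edgeR adjusted p = 0.136). CCND2-AS1 was weak, at 0.197 to 0.768 CPM.

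Around the network, 10 lists of its partners, regulators and targets held 184 tested genes, of which 21 changed, 14 higher and 7 lower (11.4%, beside 4.65% of all genes). The lists were chosen with earlier results of these data known, so the higher share cannot be read as a result about the network. The steadiest of the 21 changed genes was KHSRP, a mediator of AU-rich mRNA decay. It is also known as FUBP2, a relative of the factors that bind the far upstream element of MYC. It fell from 257.3, 262.7 and 271.1 CPM to 110.4, 113.6 and 113.8 CPM (log2 fold change -1.23, SE 0.0551, edgeR adjusted p = 0.000636). The call held under all 14 alternative settings, and KHSRP was the 1 gene of the 21 to keep its call without the pair of libraries that stood apart. FUBP1, the far upstream element-binding protein itself, rose from 252.1 CPM ± 7.4 to 326.6 CPM ± 14.2, and IGF2BP1, which binds and stabilises MYC mRNA, rose 1.24-fold, from a mean of 199.1 CPM ± 8.87 to one of 246.8 CPM ± 9.81 (SD, n = 3 each). These were the 3 called genes among 11 tested regulators of the MYC gene and its mRNA (27.3%, beside 4.65% of all genes). The median log2 fold change of the 11 was -0.033. FUBP1 and IGF2BP1 lost their calls without any 1 of the 6 libraries, FUBP1 with edgeR adjusted p between 0.0602 and 0.0904.

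Of 21 tested genes of MYC protein turnover 2 rose and 1 fell (14.3%, beside 4.65% of all genes), with a median log2 fold change of 0.035. FBXW7, the ubiquitin ligase subunit that marks phosphorylated MYC for destruction, was at 21.18, 17.47 and 16.00 CPM in the control replicates and at 27.09, 27.63 and 33.49 CPM in the SIGLEC15 siRNA replicates, a rise of 0.69 on the log2 scale (SE 0.144, edgeR adjusted p = 0.0482). PPP2R5A, a PP2A subunit that acts on MYC phosphorylation, rose 1.33-fold (edgeR adjusted p = 0.0499), and SET, an inhibitor of PP2A, fell from 1075 CPM ± 65.6 to 857.4 CPM ± 38.5 (edgeR adjusted p = 0.0479). All 3 lay just inside the threshold. Of 19 tested coactivators and partners 2 rose, among them the MYC-binding cofactor HCFC1 (102.8 to 127.4 CPM, log2 fold change 0.31), with a median of 0 over the list. None of the calls for FBXW7, PPP2R5A, SET and HCFC1 held without any 1 of the 6 libraries.

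Of the 16 tested SIN3 corepressor genes, the machinery of MXD repression, 1 rose and 1 fell (12.5%, beside 4.65% of all genes), with a median log2 fold change of -0.046. HDAC1, a catalytic deacetylase of the complex, fell from 152.7, 158.6 and 139.8 CPM to 112.6, 114.5 and 106.4 CPM (log2 fold change -0.44, SE 0.0709, edgeR adjusted p = 0.0224). BRMS1L, an accessory subunit, rose 1.43-fold, from 13.80, 14.66 and 14.22 CPM to 20.35, 20.02 and 20.80 CPM. HDAC1 kept its call without control replicate 3 and lost it without any other library, and BRMS1L lost it without any 1 library. None of the 10 tested partners of MGA in its Polycomb complex passed edgeR, and 1 had an unadjusted p under 0.05, where 19.1% of all genes did. DESeq2 called 1, as lower, where it called 8.49% of the genes it gave an adjusted p as lower. With limma-trend at either pseudocount, and by edgeR among genes averaging 5 FPKM or more, 1 was called. The most abundant were CBX3, a heterochromatin protein (log2 fold change -0.26, SE 0.0563, edgeR adjusted p = 0.0562), and TFDP1, the E2F partner (-0.11). None of the 5 genes of the parallel MLX arm, which senses glucose products, passed edgeR either. An unadjusted p under 0.05 was found for 2, beside 19.1% of all genes. DESeq2 called 1 as higher and 1 as lower, beside 17.1% of the genes it gave an adjusted p. MLX, the MAX-like partner of this arm, had means of 15.2 FPKM in the control and 16.1 FPKM in the SIGLEC15 siRNA group, beside 15.3 and 12.6 FPKM for MAX. TXNIP, a well known target of the arm, had 5.00 and 4.89 FPKM. The 2 genes of the arm with an unadjusted p under 0.05 were ARRDC4 and MLXIP. The groups did not overlap for these 2 or for MLX, as was found for 26.6% of all genes. ARRDC4 had means of 3.493 CPM in the control and 5.272 CPM in the SIGLEC15 siRNA group (edgeR adjusted p = 0.136). MLXIP had 50.43 and 40.88 CPM (edgeR adjusted p = 0.0815). Of 12 tested other E-box factors 1 changed (8.33%, beside 4.65% of all genes). It was SREBF2, the regulator of cholesterol synthesis, which fell from 171 CPM ± 3.06 to 128.7 CPM ± 2.93 (log2 fold change -0.41, edgeR adjusted p = 0.0126). SREBF2 lost its call without control replicate 1, control replicate 2 or SIGLEC15 siRNA replicate 2.

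Of 57 tested genes of ribosome biogenesis and growth known to be induced by MYC 1 rose, 2 fell and 54 did not pass, a called share of 5.26% beside 4.65% of all genes. In this list 41 of 57 had a log2 fold change above 0, with a median of 0.1, where 9277 of all 18910 genes did. SLC19A1, the folate carrier, rose from 18.94, 19.42 and 19.51 CPM to 35.27, 33.94 and 31.91 CPM (log2 fold change 0.81, SE 0.0844, edgeR adjusted p = 0.00596). SORD, sorbitol dehydrogenase, fell from 60.68 to 41.88 CPM (log2 fold change -0.53), and UNG, the uracil-DNA glycosylase of base excision repair, fell from 101.1 to 76.49 CPM (-0.40). The summed level of this list was 10560 to 10910 CPM in the control and 10290 to 10990 CPM in the SIGLEC15 siRNA libraries. The count of changed genes in this list rose to 13 of 57 with DESeq2 (9 higher, 4 lower), which called 17.1% of all genes it gave an adjusted p. The count was 6 with limma-trend and 5 when only genes averaging 5 FPKM or more were tested. It was 1 to 3 without any 1 library and 0 without the pair of libraries that stood apart. SORD lost its call without control replicate 2 or SIGLEC15 siRNA replicate 2, and UNG without any library other than control replicate 1.

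Of 24 other MYC-induced genes, all tested, 2 rose and 1 fell (12.5%, beside 4.65% of all genes), with a median log2 fold change of -0.055. CDC25A, the phosphatase that activates cyclin-dependent kinases at the start of S phase, rose from 87.80, 99.74 and 92.66 CPM to 145.1, 140.1 and 154.6 CPM (log2 fold change 0.65, SE 0.0742, edgeR adjusted p = 0.00766). The other changed genes were PPAT and PAICS, neighbours that encode early enzymes of purine synthesis and are read in opposite directions. PPAT rose from 98.17, 96.50 and 98.82 CPM to 128.3, 130.3 and 138.3 CPM (log2 fold change 0.44, SE 0.0592, edgeR adjusted p = 0.0129), and PAICS fell from 718.1, 690.4 and 689.6 CPM to 514.8, 489.3 and 529.1 CPM (-0.45, SE 0.0559, edgeR adjusted p = 0.00961). The groups were fully apart for both, in opposite directions, and in GENCODE 29 their exons share 0 bases. The call of PPAT was lost without any 1 control library or without SIGLEC15 siRNA replicate 2 (edgeR adjusted p between 0.0518 and 0.0688), while PAICS, CDC25A and SLC19A1 kept theirs without any 1 library.

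Of 12 tested genes known to be repressed by MYC 4 rose and 0 fell, where 2.22% of all genes rose, with a median log2 fold change of 0.291. Among the osteosarcoma cell markers 4 of 8 also rose and 0 fell, with a median of 0.519, while VIM and CD44 were below 0 and did not pass. The part of these markers in the result for the repressed genes was not tested. CDKN1B, the cyclin-dependent kinase inhibitor p27, rose from 43.87, 46.97 and 46.93 CPM to 63.00, 64.97 and 61.86 CPM (log2 fold change 0.46, SE 0.0681, edgeR adjusted p = 0.0161). THBS1, the matrix protein thrombospondin, rose 1.47-fold (152.8 to 225.1 CPM), FTH1, the ferritin heavy chain, 1.35-fold (657.9 to 885.9 CPM), and CEBPA, a differentiation factor, 1.83-fold (3.549 to 6.507 CPM). Of the 12 genes 3 had a log2 fold change below 0. Among these was GADD45A (-0.51, edgeR adjusted p = 0.146), with all SIGLEC15 siRNA libraries below all control libraries. DESeq2 called 4 as higher and 1 as lower, where it called 17.1% of the genes it gave an adjusted p. The count was 4 with limma-trend, 3 with no filter, and 0 or 1 without any single library. What drives the rise of these 4 genes was not tested, and the list was not tested as a set.

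**Figure D4:**
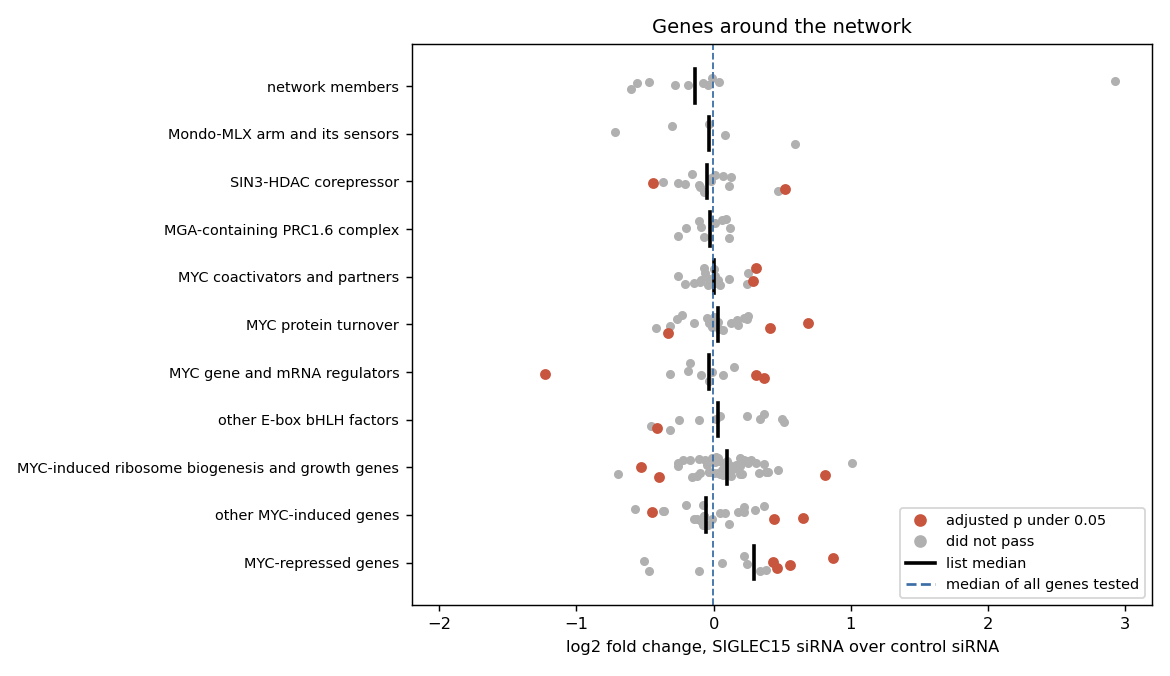
Log2 fold change (horizontal axis, SIGLEC15 siRNA over control siRNA) of the tested genes of the network and of 10 lists around it, one row per list. Red points passed the edgeR test, grey points did not, the black bar is the list median and the dashed line the median of all genes tested (-0.006). The row of MYC-repressed genes has the highest median, 0.291, and no row of MYC-induced genes has a median under -0.055.

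The network binds the E-box CACGTG, a palindrome that reads the same on both strands, and tolerates the variant CACGCG, which was searched on both strands. Promoters from 250 bases before to 50 bases after the gene start were taken from RefSeq (GRCh38.p14), with 14 promoters of 9 members matched by symbol. MXD4 and MNT held CACGTG and MXD3, MXI1 and MGA held CACGCG. MXI1 and MGA each had several promoters, and only 1 of each held CACGCG. It was a promoter downstream of the deposited gene start, and the promoter at that start held neither motif. The windows, given because they show which members carry the element their own products bind, are 5′ to 3′ on the strand of the gene with the motif in capitals:
MXD4 (chr4:2262330-2262359, minus strand): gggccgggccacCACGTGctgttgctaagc
MNT (chr17:2401236-2401265, minus strand): ccctgcccgggcCACGTGtgcgcgcgccgg
MXD3 (chr5:177312727-177312756, minus strand): aaaaggccatttCGCGTGcctccagggtat
MXI1 (chr10:110225992-110226021, plus strand): aggtaaacaaacCACGCGcgggctgcccgc
MGA (chr15:41660372-41660401, plus strand): agcgggtaggagCGCGTGcgcggtgacgtg

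CACGTG was in 14.3% of the members' promoters and CACGCG in 21.4%, beside 7.26% and 11.4% of all 35116 promoters in the table. The matched MAX, MXD1, MYCL and MYCN promoters held neither in these windows. None of the 5 members with a match had groups that were apart. A match is only a description of the letters in the window.

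CACGTG was more common in the promoters of the MYC-induced lists. It was in 25 of 61 promoters (41.0%) of the ribosome biogenesis and growth genes and in 9 of 29 (31.0%) of the other MYC-induced genes, and in 1 of 13 (7.69%) of the MYC-repressed genes. Among the called genes of the MYC-induced lists it was found in UNG, SLC19A1, PPAT and PAICS, shown here because UNG and PAICS fell and SLC19A1 and PPAT rose with the same element:
UNG, first site (chr12:109097928-109097957, plus strand): ccaaatagcctcCACGTGttcaaaatagcc
UNG, second site (chr12:109098113-109098142, plus strand): ccgcgaaaagacCACGTGgggacgcggtgg
SLC19A1 (chr21:45541797-45541826, minus strand): ttcgcgcccaggCACGTGttgcttcgggac
PPAT (chr4:56435780-56435809, minus strand): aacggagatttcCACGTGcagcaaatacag
PAICS (chr4:56435780-56435801, plus strand): ctgtatttgctgCACGTGgaaa

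The PPAT and PAICS windows are the 2 strands of one site where the genes start back to back. Measured from the gene start at 0, the motif begins at -182 for PPAT and at 40 for PAICS. The 2 genes that share this E-box thus changed in opposite directions, with log2 fold changes of 0.44 and -0.45.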

How the data were processed

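Poly(A) RNA was sequenced as paired-end libraries, per the labels' protocols. The authors deposited whole-number counts and FPKM values per gene and library, per the file headers. HISAT, StringTie and edgeR are named, without versions, in the submitters' processing notes. The genome build, the counting step and strand use are not stated. Genes without reads carry a floor of 0.0001 FPKM. Of the members' coordinates 4 of 10 equal GENCODE 29 (GRCh38), and they are printed as the table gives them. All columns matched a sample (0 unmatched).

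Counts were tested with edgeR 4.0.16 (R 4.3.3): filterByExpr (minimum count 10, total 15), TMM scaling, and the quasi-likelihood test between the siRNA groups over 6 libraries, with Benjamini-Hochberg adjustment over 18910 genes and a threshold of 0.05. The test was tried on simulated data. CPM uses TMM-scaled totals. SE is derived from the log2 fold change and the F statistic. Exact two-sided permutation tests of single members cannot go below p = 0.1 with 3 against 3 libraries, and none is used for a call.

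The members and lists were chosen with earlier results of these data known, the lists from general knowledge. Named genes are the members, SIGLEC15, up to 4 called genes of smallest p per list (otherwise the 2 of highest mean FPKM), genes overlapping a member, and the 3 most like MYC. Not every gene this covers is reported here. Outside this rule, cell markers are named, as are ARRDC4, MLXIP and GADD45A, which moved otherwise than the named genes of their lists. Alternatives were median-of-ratios factors, no filter, a mean FPKM of at least 5, DESeq2 1.42.0, limma-trend (limma 3.58.1) on log2 FPKM with a pseudocount of 1 or 0.1 for genes averaging 1 FPKM or more, a block for the replicate number, omission of each library, and, chosen after seeing the data, both outlying libraries left out.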

Additional observations from a re-analysis of the deposited data

How the results depend on the processing

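The 10 members had 0 calls under every alternative but DESeq2, which called 3, all lower (MYC, MAX and MXD1; the cause was not tested). MYC, MAX, MXD1 and MXI1 stayed below 0 in every alternative that tested them, MYC between -0.78 and -0.36, MAX between -0.32 and -0.22 and MXD1 between -0.68 and -0.37. MYCL and MYCN fell outside the FPKM filters. The direction was not stable where the change was near 0: without each library in turn, MXD3 ran from -0.14 to 0.09, MXD4 from -0.13 to 0.13, MNT from -0.09 to 0.04 and MGA from -0.21 to 0.04, and MYCL was 0.07 without the pair of libraries that stood apart. Of all genes tested, 879 changed, 419 higher and 460 lower. DESeq2 gave 2916 (1469 higher, 1447 lower), the fits without each library 260 to 431 (108 to 189 higher, 151 to 242 lower), with fewer samples, and the fit without both outlying libraries 70 (27 higher, 43 lower). With the replicate number as a block 50 changed (15 higher, 35 lower). The deviations of libraries with the same number were not correlated (r = -0.0489, 0.0111 and -0.0626), so the numbers are not taken as pairs. Of the 21 called genes in the lists around the network, 4 to 8 kept their call without any 1 library, 1 (KHSRP) with the block, and 1 (KHSRP) without both outlying libraries.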
